A study of Mus musculus with 4 samples.

Results

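The genes described are the mouse enzymes of xenobiotic metabolism whose symbols follow the naming of 5 families: the cytochromes P450 (Cyp), the UDP-glucuronosyltransferases (Ugt), the glutathione S-transferases (Gst), the sulfotransferases (Sult) and the carboxylesterases (Ces). They were chosen by symbol pattern and by being listed: the measured value that selects a gene is its presence in the gene list of a library, so the presence of a member in a list is a description. In all, 114 such genes stood in at least 1 complete list, of 29652 genes listed in all. The annotation holds 176 genes that follow the same patterns, all protein-coding, so 62 of them were in no complete list. The readout is whether a gene is listed, with no count or level behind it.

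The libraries are single-cell RNA-seq of EpCAM-labelled, flow-sorted cells of fetal mouse pancreas on a C57BL/6 background, and EpCAM is a surface protein of epithelia. There were 4 groups of 1 library each: E15.5 KO and E13.5 KO, labelled PdxcreSetd2 f/f, and E15.5 WT and E13.5 WT, labelled Setd2 f/f without the Cre. All 4 groups carry the floxed Setd2 alleles; Setd2 encodes a histone methyltransferase, and the Pdx promoter drives Cre in pancreatic epithelium and in parts of the neighbouring stomach and duodenum. The sources used here do not state how many embryos went into a library. The complete lists hold 25474 genes in E15.5 KO, 26341 in E13.5 KO and 25463 in E13.5 WT. The E15.5 WT list breaks off after 167 complete lines and covers 1 of the 176 members. Setd2 (ENSMUSG00000044791) was in 3 of the 3 complete lists, and a listing does not show whether the deleted part was read. All 12 pancreatic epithelium markers, Pdx1, Ptf1a, Ins1, Cpa1 and Epcam among them, were in the 3 complete lists. Of all annotated protein-coding genes, 72.8% were in all 3. With 1 library a group there is no replicate check and no test; an unlisted gene could be present below the depth of that library, which is unknown, and fewer cells with a transcript cannot be told apart from less RNA per cell.

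Cytochromes P450 are heme enzymes that oxidise drugs, pollutants, fatty acids, sterols, vitamin D and retinoic acid, and they take their electrons from partner reductases. The oxidised products are joined to glucuronic acid by Ugt enzymes, to glutathione by Gst enzymes or to sulfate by Sult enzymes, while Ces enzymes cleave esters. The adult liver and intestine are the main sites of this work. In the embryo some members have developmental substrates, and the Cyp26 enzymes, which break down retinoic acid, are known to shape the signal that patterns the foregut and pancreas. Many of the genes lie in tandem runs of close copies, and some copies are nearly identical.

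The sequences of 3 pairs of copies show how little separates some members. Ugt1a6a and Ugt1a6b, both phenol-conjugating enzymes, have proteins that are 97.2% identical over 531 residues, and their coding sequences differ at 26 of 1593 bases. Cyp2a4, a steroid hydroxylase, and Cyp2a5, a coumarin hydroxylase, are 97.6% identical in protein and differ at 23 of 1482 coding bases. Gsta1 and Gsta2, alpha-class glutathione transferases, are 95.5% identical and differ at 13 of 666 bases. For each pair the coding window of 60 bases within 1 exon with the most differences is shown 5′ to 3′ on the strand of the gene, from GENCODE transcripts on GRCm38, with differing bases in capitals.
Ugt1a6a, chr1:88138769-88138828, plus strand, exon 1: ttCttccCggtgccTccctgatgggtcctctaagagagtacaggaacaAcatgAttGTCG
Ugt1a6b, chr1:88107237-88107296, plus strand, exon 1: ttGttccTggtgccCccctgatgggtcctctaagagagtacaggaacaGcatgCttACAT
Cyp2a4, chr7:26307666-26307725, plus strand, exon 2: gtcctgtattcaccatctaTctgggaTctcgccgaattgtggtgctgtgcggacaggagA
Cyp2a5, chr7:26835811-26835870, plus strand, exon 2: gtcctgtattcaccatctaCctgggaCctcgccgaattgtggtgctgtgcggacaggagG
Gsta1, chr9:78241561-78241620, plus strand, exon 6: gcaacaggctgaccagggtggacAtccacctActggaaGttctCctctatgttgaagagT
Gsta2, chr9:78332125-78332184, minus strand, exon 6: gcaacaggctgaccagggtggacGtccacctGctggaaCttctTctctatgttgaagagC
The windows differ at 9 bases for Ugt1a6, 3 for Cyp2a and 5 for Gsta. No other such window in these coding sequences has more differences, and the sources used here do not state what the authors did with reads that match more than 1 gene.

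The 5 families were listed to very unequal extents. Gst genes were nearly all listed: 21 of 21 in E15.5 KO, 20 of 21 in E13.5 KO and 21 of 21 in E13.5 WT. Cyp genes numbered 44 in E15.5 KO, 47 in E13.5 KO and 41 in E13.5 WT, of 94 annotated. Ugt genes numbered 10 in E15.5 KO, 9 in E13.5 KO and 7 in E13.5 WT, of 21. Sult genes numbered 9, 10 and 10 in E15.5 KO, E13.5 KO and E13.5 WT, of 21, and Ces genes 9, 8 and 10, of 19. Taken as 1 group, the members were listed at 52.8% in E15.5 KO, 53.4% in E13.5 KO and 50.6% in E13.5 WT. Other protein-coding genes of the annotation were listed at 76.1% in E15.5 KO, 78.1% in E13.5 KO and 77.9% in E13.5 WT. Of the 176 members, 72 (40.9%) were in all 3 complete lists, 42 in 1 or 2 of them and 62 (35.2%) in none. For the other 21852 protein-coding genes, 73.1% were in all 3 and 18.4% in none. Of the genes in any complete list, 36.8% of members and 10.5% of the other protein-coding genes were in only 1 or 2.

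**Figure D1:**
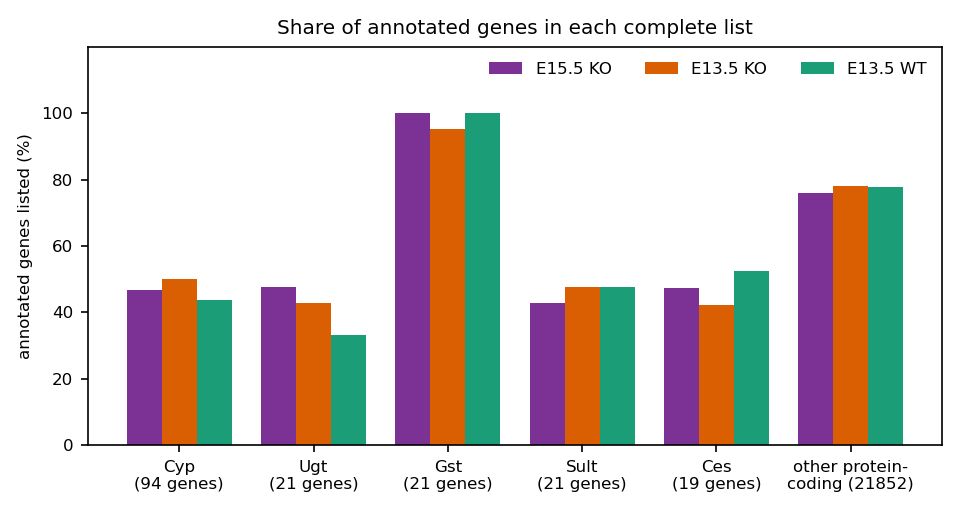
Share of the annotated genes of each family that each complete list holds (y axis, percent), with all other protein-coding genes on the right. Gst reaches 95.2% to 100% in each library, while Cyp, Ugt, Sult and Ces lie between 33.3% and 52.6%, below the other protein-coding genes (76.1% to 78.1%).

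Among the Gst genes, which conjugate glutathione to reactive compounds, all 7 of the mu class, all 4 of the theta class, all 3 of the pi class, both of the omega class and the zeta-class gene Gstz1 were in all 3 complete lists. Gstz1 also works in tyrosine breakdown. In the alpha class Gsta2, Gsta3 and Gsta4 were in all 3 lists, and Gsta1 was in E15.5 KO and E13.5 WT and absent from E13.5 KO. Of the 100-base windows in the Gsta1 transcript, 80.6% also occur in another annotated gene, chiefly Gm3776 (64.7%), which was in E13.5 WT and in neither KO list. Its listing is therefore uncertain. Gstp1 and Gstp2, 97.1% identical in protein, were both in all 3 lists, and a read of one may have been counted for the other.

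Among 18 P450 genes with named endogenous substrates, 10 (55.6%) were in all 3 complete lists and 6 (33.3%) in none. The shares over all members were 40.9% and 35.2%, and over other protein-coding genes 73.1% and 18.4%. For retinoic acid, Cyp26a1 and Cyp26b1 were in all 3 complete lists and Cyp26c1 was in none. For bile acids and cholesterol, Cyp27a1, Cyp7b1, Cyp8b1, Cyp39a1 and Cyp46a1 were in all 3, and Cyp7a1, the rate-limiting enzyme of bile acid synthesis in liver, was in none. For vitamin D, the activating enzymes Cyp2r1 and Cyp27b1 were in all 3, and Cyp24a1, which inactivates the hormone, was in none. The genes for steroid hormones were the ones of these that differed between libraries. Cyp11a1 (chromosome 9, 58006411 to 58027023), which makes pregnenolone from cholesterol, was in all 3 lists. Cyp17a1 (chromosome 19, 46667165 to 46673172), which acts next on the way to androgens, was in E15.5 KO and E13.5 KO and not in E13.5 WT. Cyp21a1 (chromosome 17, 34801348 to 34804561), the adrenal enzyme of gluco- and mineralocorticoids, was in E15.5 KO alone. Cyp11b1, Cyp11b2 and Cyp19a1, which make corticosterone, aldosterone and estrogen, were in none.

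Markers of steroidogenic cells were listed in part beside these genes: 5 of 9 in E15.5 KO, 5 in E13.5 KO and 6 in E13.5 WT. The shares over all protein-coding genes were 75.9%, 77.9% and 77.7%. Star, Hsd3b1, Fdx1 and Nr0b1 were in all 3 lists. Fdx1 is also among the partners of P450 enzymes counted below, so it is not a marker of steroidogenic cells alone. Nr5a1, the regulator of adrenal and gonadal steroid synthesis, was in E15.5 KO alone, as Cyp21a1 was. Hsd3b6 was in both E13.5 lists, Mc2r was in E13.5 WT alone, and Hsd17b3 and Insl3 were in none. The part of steroidogenic cells in the listing of Cyp17a1 and Cyp21a1 was not tested.

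The promoters of the Cyp26 genes are shown because these genes, which have a common substrate, differ both in listing and in sequence. Cyp26a1 (chromosome 19, 37697798 to 37701536) and Cyp26c1 (37685581 to 37693398) are neighbours on the plus strand, and Cyp26b1 lies on chromosome 6 (84571414 to 84593908). RefSeq places the starts inside the genes as given above, by 10 bases for Cyp26a1, 98 for Cyp26b1 and 99 for Cyp26c1. The stretches therefore reach into those genes. Below are the 250 bases before each RefSeq start, on GRCm38.p6, 5′ to 3′ on the gene's strand, with CG dinucleotides in capitals.
Cyp26a1, chr19:37697558-37697807, plus strand: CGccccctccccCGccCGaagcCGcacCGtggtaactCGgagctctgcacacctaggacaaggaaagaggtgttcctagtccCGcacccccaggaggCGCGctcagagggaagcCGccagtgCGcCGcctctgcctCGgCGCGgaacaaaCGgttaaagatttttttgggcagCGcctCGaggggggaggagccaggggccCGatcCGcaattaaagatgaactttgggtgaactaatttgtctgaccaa
Cyp26b1, chr6:84593811-84594060, minus strand: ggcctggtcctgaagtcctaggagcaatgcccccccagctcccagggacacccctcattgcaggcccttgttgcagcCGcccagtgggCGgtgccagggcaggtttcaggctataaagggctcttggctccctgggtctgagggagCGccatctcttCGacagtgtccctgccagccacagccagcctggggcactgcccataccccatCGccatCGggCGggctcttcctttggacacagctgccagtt
Cyp26c1, chr19:37685430-37685679, plus strand: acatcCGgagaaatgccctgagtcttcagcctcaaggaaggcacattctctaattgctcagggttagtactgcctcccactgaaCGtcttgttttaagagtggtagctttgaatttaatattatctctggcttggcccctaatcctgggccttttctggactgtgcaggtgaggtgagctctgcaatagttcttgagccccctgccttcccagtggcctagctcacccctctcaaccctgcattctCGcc
The stretch holds 20 CG dinucleotides for Cyp26a1 and 7 for Cyp26b1, the genes in all 3 lists, and 3 for Cyp26c1, which no complete list holds.

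The same count over the members with a RefSeq promoter, a window of 250 bases before to 50 after the RefSeq start, gave a median of 4 CG for the 57 genes in all 3 lists. It was 2 for the 14 genes in 2 lists, 1 for the 18 in 1 list and 2 for the 45 in none. Among members in tandem runs (groups of neighbouring members), leaving out Gst, the median was 2 both for the 26 genes in all 3 lists and for the 43 in none. Of the 134 members with such a window, 16 held 10 or more CG, a limit chosen after the values were seen. These 16 included Cyp46a1 (31), Cyp26a1 (26), Cyp2r1 (22), Cyp20a1 (20), Gsto2 (20), Gstp1 (20) and Cyp1b1 (16), and 14 of the 16, of which 7 are Gst genes, were in all 3 lists. The other two, Cyp1b1 and Cyp4f39, were in 2 lists each. Of the 118 members with fewer CG, 43 (36.4%) were in all 3 lists and 45 (38.1%) in none. Protein-coding genes followed the same order: 95.5% of the 9140 with 10 or more CG and 50% of the 5138 with fewer were in all 3 lists. Their median over 14278 windows was 16 CG, against 2.5 over the members. The genes share libraries and families, so these are descriptions.

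**Figure D2:**
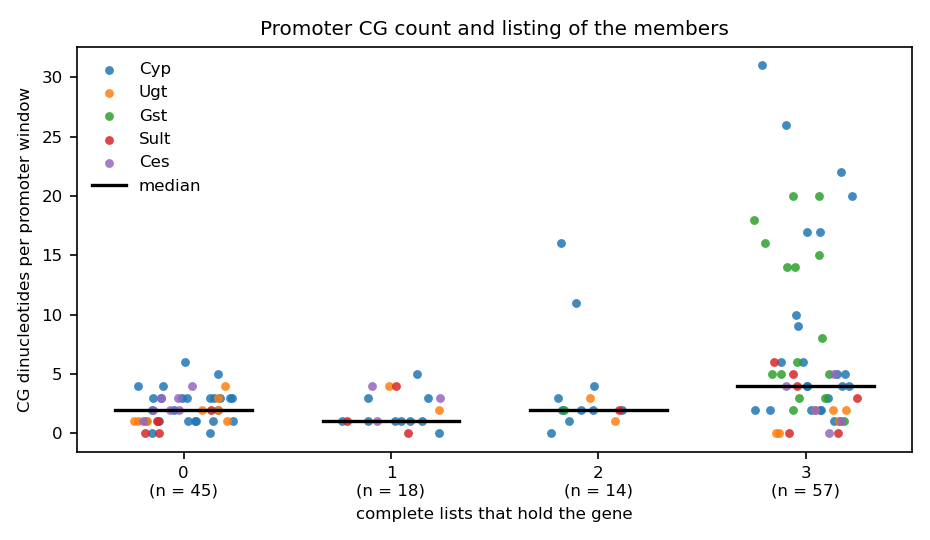
CG dinucleotides in the 300-base promoter window of each of 134 members (y axis) by the number of complete lists that hold the gene (x axis, points spread sideways for view, bars at the median). The 16 windows with 10 or more CG belong to genes in 2 or 3 lists, and the highest count among the 45 genes in no list is 6.

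The core TATAAA, read on the gene's strand before the start, was in 4 of the 57 windows of genes in all 3 lists (7.02%), in 9 of 32 for genes in 1 or 2 lists (28.1%) and in 10 of 45 for genes in none (22.2%). Over all protein-coding genes the core was in 4.78% of windows of genes in all 3 lists, 11.5% for genes in 1 or 2 and 20.1% for genes in none, so the share among unlisted members was close to that of unlisted genes at large. The core GCGTG of the aryl hydrocarbon receptor site, searched on both strands, was in 17.2% of the members' windows and in 42.2% of all windows. This core contains a CG, and the members' windows had a median of 2.5 CG against 16 over all windows. For genes in all 3 lists the share was 21.1% of members' windows and 49.1% of all windows. For genes in 1 or 2 lists it was 18.8% and 22.5%, and for genes in none 11.1% and 11.6%. The part of CG content in this difference was not tested. The core TGACNNNGC of the antioxidant response element, on both strands, was in 5.97% of the members' windows and in 13.7% of all windows. A match is a string of letters and was not tied to binding.

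At E13.5 the KO and WT libraries show which of these enzymes were listed with the Setd2 deletion and not without it, and the reverse. Of 104 members in either list, 79 were in both, 15 (14.4%) were in KO only and 10 (9.62%) in WT only. Thus 24% of the members differed, where 6.08% of the 17668 protein-coding genes in either list did (3.17% in KO only and 2.91% in WT only). Over all 28204 genes in either list, coding or not, 16.3% differed. By family, 16 of 52 Cyp genes differed, 4 of 10 Ugt, 1 of 21 Gst, 2 of 11 Sult and 2 of 10 Ces. No test was possible with 1 library a group.

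The 15 members that E13.5 KO listed and E13.5 WT did not were 11 Cyp, 3 Ugt and 1 Sult gene. Cyp1a1 (chromosome 9, 57687928 to 57703824), which oxidises aromatic hydrocarbons and is the standard target of the aryl hydrocarbon receptor, was held by the E13.5 KO list and no other complete list. The others found in E13.5 KO alone were Cyp2a4, Cyp2g1 of the olfactory mucosa, Cyp2w1, Cyp3a16 of the fetal mouse liver, the fatty acid hydroxylase Cyp4a32, Sult1c1 and Ugt3a1. Cyp17a1, Cyp2a5, Cyp2f2 of the airway, Cyp3a11 of the liver, Cyp4f39, a fatty acid hydroxylase of the skin, Ugt1a6a and Ugt2b1 stood in the lists of both KO ages. These 7 genes are 6.14% of the 114 listed members, and the same pattern held for 1.28% of listed protein-coding genes. Among genes that varied between the complete lists, it held for 7 of 42 members and 229 of 1909 protein-coding genes. The pattern rests on the E13.5 WT library alone, since the E15.5 WT list does not reach them. Cyp2a5 and Ugt1a6a, of these 7, have near copies too, so their listings are uncertain. The extent is unequal: Ugt1a6a has 50.4% of its transcript windows in common with another gene, and Cyp2a5 has 12.1%.

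The 10 genes in E13.5 WT only were 5 Cyp, 2 Ces and 1 each of Ugt, Gst and Sult. Cyp2a12, Cyp2c67, Cyp2d9, Ces2a, Sult2a4 and Ugt1a6b were held by the E13.5 WT list and neither KO list. These 6 genes are 5.26% of listed members, and 1.93% of listed protein-coding genes had this pattern. Among genes that varied between the complete lists, 6 of 42 members and 347 of 1909 protein-coding genes had it. Cyp2c67 and Ugt1a6b have near copies, so their listings are uncertain. Here too the extent is unequal: Ugt1a6b has 70.9% of its transcript windows in common with another gene, and Cyp2c67 has 23.7%. Cyp2d9 and Cyp2a12 are steroid hydroxylases of the liver, Ces2a is a carboxylesterase of intestine and liver, and Sult2a4 belongs to the hydroxysteroid sulfotransferases. Cyp2c65 of the digestive tract, Cyp4f40, Ces1f of the liver and Gsta1 were in E15.5 KO and E13.5 WT and absent from E13.5 KO. Of the 15 stomach and intestine markers, 11 were in E13.5 KO and 15 in E13.5 WT. The 4 missing in E13.5 KO were the stomach genes Tff1, Gkn1, Gkn2 and Muc5ac, while Tff2, Muc6, Cym and Sox2 of the same list were present there. In E15.5 KO 11 of the 15 were listed, with Muc5ac present and Tff1, Gkn1, Gkn2 and Sox2 missing. All 15 hepatocyte markers, Alb, Apoa1, Ttr and Ahsg among them, were in all 3 complete lists. The shares over all protein-coding genes were 75.9% in E15.5 KO, 77.9% in E13.5 KO and 77.7% in E13.5 WT, with 72.8% in all 3. The part of stomach, intestine or liver cells in the listings was not tested.

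**Figure D3:**
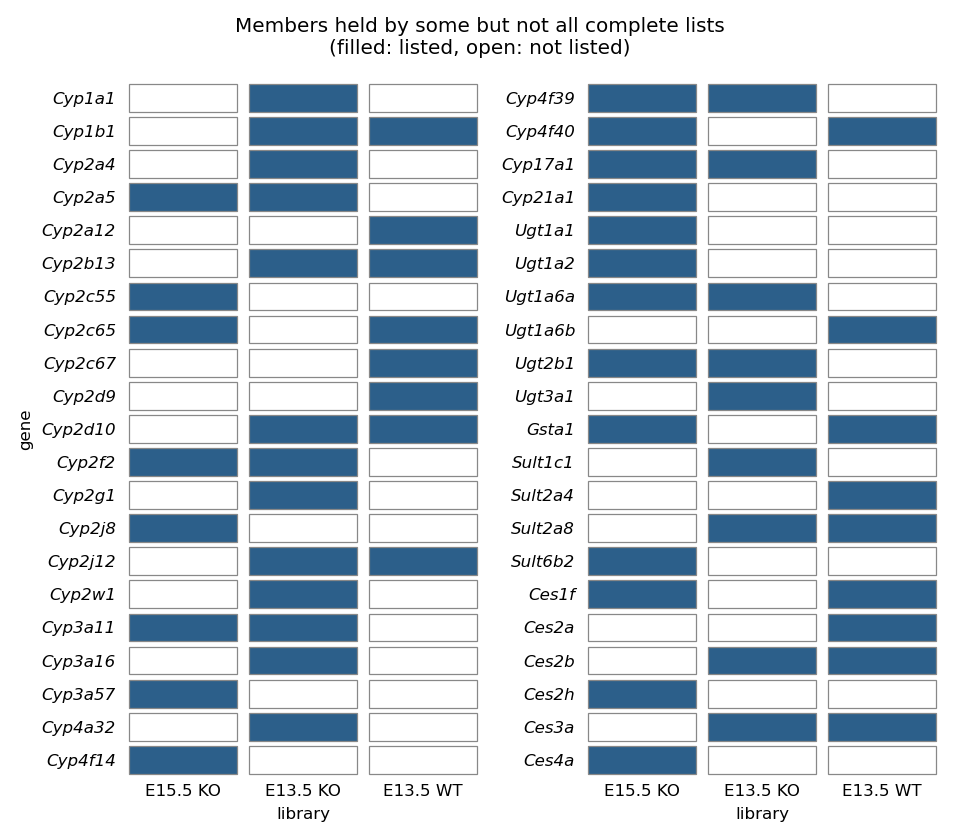
The 42 members held by 1 or 2 of the 3 complete lists (rows) in E15.5 KO, E13.5 KO and E13.5 WT (columns); a filled cell means listed. Ugt1a6a and Ugt1a6b fill opposite cells in each library, and Cyp1b1, Cyp2b13, Cyp2d10, Cyp2j12, Sult2a8, Ces2b and Ces3a are filled in both E13.5 libraries and open in E15.5 KO.

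The comparison of E15.5 KO with E13.5 KO sets the later age against the earlier in libraries with the Setd2 deletion. Of 108 members in either list, 79 were in both, 14 (13%) in E15.5 KO only and 15 (13.9%) in E13.5 KO only. The differing members were 26.9%, beside 7.57% of the 17602 protein-coding genes in either list (2.55% in E15.5 KO only and 5.03% in E13.5 KO only). Over all 28438 genes in either list 17.8% differed. By family, 17 of 54 Cyp genes differed, 3 of 11 Ugt, 1 of 21 Gst, 3 of 11 Sult and 5 of 11 Ces. This comparison uses the same E13.5 KO library as the comparison of genotypes, so a gene that this library alone lists or lacks enters both.

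Of the 14 members that E15.5 KO listed and E13.5 KO did not, 10 were in no other complete list: Cyp21a1, Cyp2c55, Cyp2j8, Cyp3a57, Cyp4f14, Ugt1a1, Ugt1a2, Ces2h, Ces4a and Sult6b2. Ugt1a1 conjugates bilirubin, Cyp4f14 inactivates leukotrienes in mouse liver, and Cyp2c55 is known from the mouse colon. Those 10 are 8.77% of listed members, where 1.57% of listed protein-coding genes were in E15.5 KO alone. Among genes that varied between the complete lists, 10 of 42 members and 281 of 1909 protein-coding genes had this pattern. The other four, Ces1f, Cyp2c65, Cyp4f40 and Gsta1, were in E13.5 WT too. Of the Cyp4f genes, which hydroxylate fatty acids and eicosanoids, 8 of 9 were in E15.5 KO, 6 in E13.5 KO and 6 in E13.5 WT. E15.5 KO also listed more Cyp2c genes than E13.5 KO (5 against 3). It listed fewer Cyp2a, Cyp2b, Cyp2d and Cyp4a genes, and as many Cyp2j and Cyp3a genes.

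Of the 15 genes in E13.5 KO only, 7 were in E13.5 WT as well and thus in both E13.5 lists: Cyp1b1, Cyp2b13, Cyp2d10, Cyp2j12, Sult2a8, Ces2b and Ces3a. Cyp1b1, a P450 of mesenchyme and other tissues outside the liver, had the most promoter CG among the 32 of the 42 varying genes with a promoter window. Sult2a8 sulfates bile acids in mouse liver, and Ces3a hydrolyses lipids there. These 7 are 6.14% of listed members, and 3.09% of listed protein-coding genes had this pattern. Among genes that varied between the complete lists the order was reversed, with 7 of 42 members and 554 of 1909 protein-coding genes. With Cyp1a1 in E13.5 KO alone and Cyp1a2 in no list, 0 of the 3 Cyp1 genes were in E15.5 KO, 2 were in E13.5 KO and 1 was in E13.5 WT. The aryl hydrocarbon receptor Ahr, its partner Arnt and its repressor Ahrr were in all 3 lists.

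**Figure D4:**
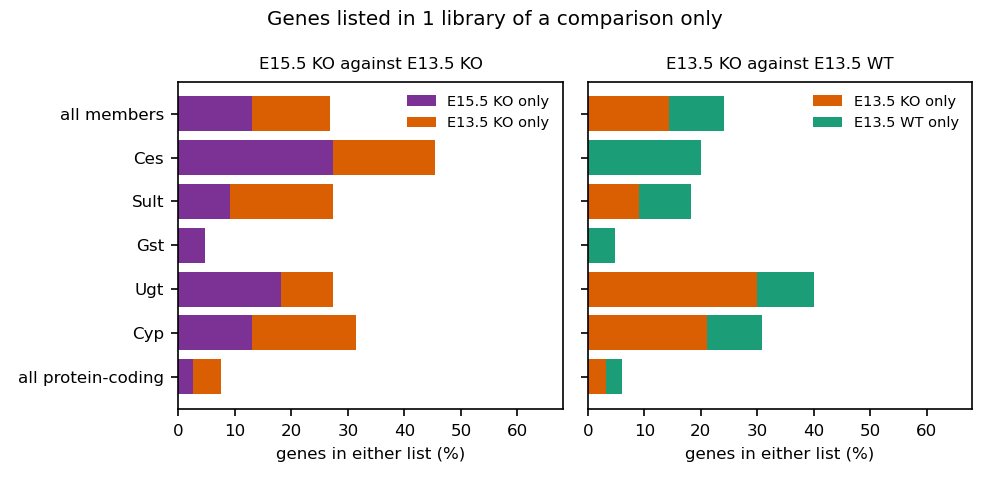
Genes listed in 1 library of a comparison only, as a percent of the genes in either list (x axis), by family, over all members and over all protein-coding genes (rows); colours give the library that holds the gene. All members stand at 26.9% between the KO ages and 24% between the E13.5 genotypes, protein-coding genes at 7.57% and 6.08%, and Gst at 4.76% in both.

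At E15.5 the genotypes can be compared for 1 member. Sult5a1 (ENSMUSG00000000739, chromosome 8, 123140192 to 123158315), a sulfotransferase, was listed at E15.5 for KO and WT alike, and also in both lists of E13.5. Among the 171 protein-coding genes in either list up to the break, 4.68% differed.

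Of the 176 members, 142 lay in tandem runs, defined as neighbours of the same family number, or of the same Gst class, no more than 500000 bases apart. The runs held 36 of the 42 members that varied between lists and 58 of the 62 in none. Leaving out Gst, 30 of 123 members in runs (24.4%) were in all 3 lists, 35 varied and 58 (47.2%) were in none. Outside runs, 22 of 32 (68.8%) were in all 3, 6 varied and 4 (12.5%) were in none. The Gst runs did not follow this: the 7 Gstm genes on chromosome 3 and the 4 Gstt genes on chromosome 10 were each listed throughout.

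The Cyp2c run (chromosome 19, 39007019 to 40187333, 14 genes of drug and arachidonic acid metabolism) was the largest and among the emptiest. It had 4 genes in E15.5 KO, 2 in E13.5 KO and 4 in E13.5 WT, with Cyp2c68 and Cyp2c70 in all 3 lists and 9 genes in none. The Cyp2 run on chromosome 7 (25802475 to 27158668, 13 genes of the a, b, f, g, s and t subfamilies) had 4 genes in E15.5 KO, 7 in E13.5 KO and 4 in E13.5 WT. Cyp2s1 and Cyp2t4, the genes at its ends, were in all 3 lists. Cyp2a4, Cyp2a5, Cyp2f2 and Cyp2g1 were in E13.5 KO and not in E13.5 WT, and Cyp2a12 was in E13.5 WT and in neither KO list. The Cyp3a run on chromosome 5 (145345279 to 146113287, 6 genes of drug and steroid oxidation) had 2 genes in E15.5 KO, 2 in E13.5 KO and 0 in E13.5 WT. Cyp3a13, which lies apart from this run, was in all 3. The Sult2a run on chromosome 7 (13623967 to 14494230, 8 genes of steroid and bile acid sulfation) had 0 genes in E15.5 KO, 1 in E13.5 KO and 2 in E13.5 WT. Other runs varied less. The Cyp2j run on chromosome 4 had 4 of 8 genes in each complete list, and the Ces1 run had 5, 4 and 5 of 8. Over all 142 members in runs, 45.8% were in E15.5 KO, 47.2% in E13.5 KO and 45.1% in E13.5 WT.

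**Figure D5:**
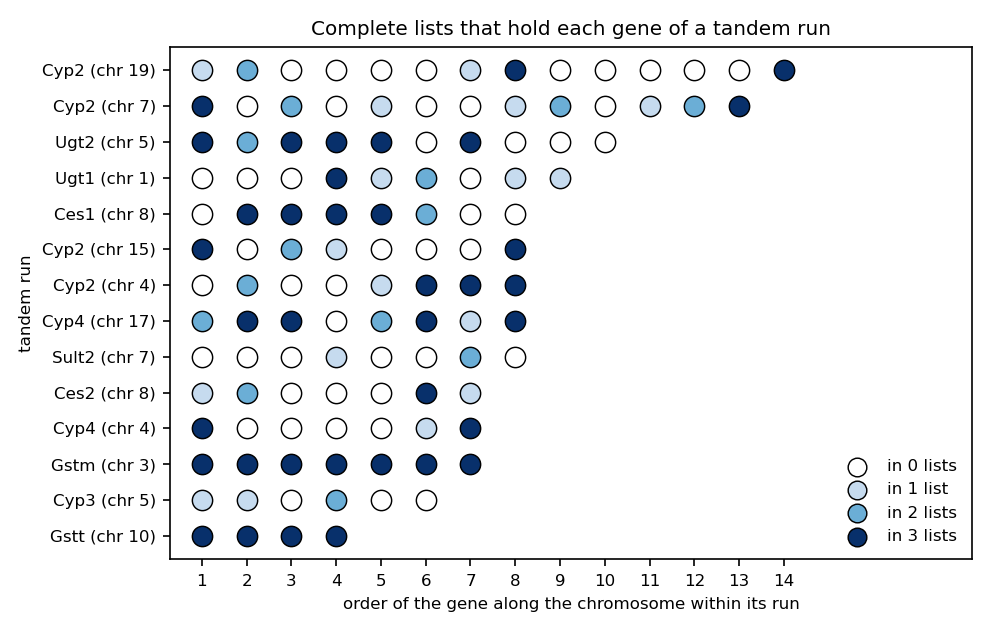
Each row is a tandem run of 4 or more members, each circle a gene in its order along the chromosome, and the shade gives how many of the 3 complete lists hold it. The Gstm and Gstt runs are dark throughout, while 9 of the 14 genes of the Cyp2 run on chromosome 19 and 6 of the 8 of the Sult2 run on chromosome 7 are open.

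The Ugt genes fall into a few runs with different listings. In the Ugt2 run on chromosome 5 (86889767 to 87490871), whose enzymes conjugate steroids, bile acids and drugs, Ugt2a3, Ugt2b5, Ugt2b34, Ugt2b35 and Ugt2b36 were in all 3 lists. Ugt2b1 was in E15.5 KO and E13.5 KO and not in E13.5 WT, and the other 4 of the 10 genes were in none. In the Ugt1 run on chromosome 1 (88055388 to 88220002), where each gene has its own exon 1 and all share the later ones, 4 of 9 genes were in E15.5 KO, 2 in E13.5 KO and 2 in E13.5 WT. Ugt1a7c was in all 3 lists. Each of the 9 genes has 50.4% to 70.9% of its windows in common with another gene, so single Ugt1a listings are uncertain.

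Each complete list held exactly 1 of Ugt1a6a and Ugt1a6b, the pair shown above. Ugt1a6a was in E15.5 KO and E13.5 KO, and Ugt1a6b was in E13.5 WT. With the pair counted as 1 gene there is no difference between the libraries. In all, 13 pairs formed by 20 members reached 95% protein identity, and 12 of those 20 were in some complete list. The listing was the same for both genes in 4 pairs and different in 9. Among those 4, only Gstp1 and Gstp2 were listed, and both genes of each other pair were in no complete list. The pairs overlap, since Cyp2c40, Cyp2c67, Cyp2c68 and Cyp2c69 each enter several, so the pairs are not separate observations. Cyp2a5 was in E15.5 KO and E13.5 KO and Cyp2a4 in E13.5 KO alone, with neither in E13.5 WT. Cyp2c68, in all 3 lists, and Cyp2c67, in E13.5 WT alone, are near copies of Cyp2c40, in none. Likewise Ugt2b5 was in all 3 lists and its near copy Ugt2b38 in none, and Cyp4a32 was in E13.5 KO alone and its near copy Cyp4a10 in none. Members in no list had a median of 1.54% of windows in common with another gene, and those in all 3 lists 0%.

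The carboxylesterases Ces1b, Ces1c, Ces1d, Ces1e, Ces2g and Ces5a were in all 3 complete lists. Ces1d is a lipid hydrolase of liver and fat, and Ces1c is secreted into plasma in the mouse. The Ces2 run on chromosome 8 (104734003 to 105021178) had 2 genes in E15.5 KO, 2 in E13.5 KO and 3 in E13.5 WT. Of the sulfotransferases, Sult1a1, Sult1b1, Sult1c2 and Sult1d1, which act on phenols and hormones, were in all 3, as were Sult2b1, which sulfates cholesterol, the brain enzyme Sult4a1, Sult5a1 and Sult6b1.

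The 62 members in no complete list were 37 Cyp, 9 Ugt, 9 Sult and 7 Ces genes. Of the Cyp genes, the first 10 by identifier were Cyp2c29, Cyp11b2, Cyp2ab1, Cyp2c39, Cyp2c40, Cyp7a1, Cyp2j13, Cyp4a31, Cyp4a14 and Cyp3a25. The 9 Ugt genes were Ugt1a5, Ugt1a8, Ugt1a9, Ugt1a10, Ugt2a1, Ugt2a2, Ugt2b37, Ugt2b38 and Ugt3a2. The 9 Sult genes were Sult1e1, the estrogen sulfotransferase, Sult3a1, Sult3a2 and the 6 hydroxysteroid enzymes Sult2a1, Sult2a2, Sult2a3, Sult2a5, Sult2a6 and Sult2a7. The 7 Ces genes were Ces1a, Ces1g, Ces1h, Ces2c, Ces2e, Ces2f and Ces3b. Of the 62, 6 have at least 50% of their windows in common with another gene and 25 have none. The data do not separate a gene that was not detected from one that the authors' annotation lacked.

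The other genes of the pathway, a set picked by name, were listed almost without exception. All 12 regulators, Nr1i2, Nr1i3, Ppara, Hnf4a and Nfe2l2 among them, all 7 partners of P450 enzymes such as Por and Fdxr, all 12 other conjugation enzymes and all 9 genes of cofactor supply were in the 3 complete lists. Of the 26 other enzymes of oxidation, reduction and hydrolysis, 24 were in each list. Aldh3a1, an aldehyde dehydrogenase, was in E15.5 KO and E13.5 WT and not in E13.5 KO. Aox3, an aldehyde oxidase, was in E13.5 KO alone. Over the 5 lists, 64 of 66 genes were in E15.5 KO, 64 in E13.5 KO and 64 in E13.5 WT. All protein-coding genes of the annotation were listed at 75.9% in E15.5 KO, 77.9% in E13.5 KO and 77.7% in E13.5 WT. Because the 66 genes were picked, these shares do not show a trait of the pathway.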

How the data were processed

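The files deposited by the authors hold an Ensembl identifier and a symbol per line, without header or values, so the unit is whether a gene is listed. Per the submitters' processing notes, Seurat and the build mm10 were used; the sources used here give no aligner, annotation, filter or listing rule. Members were found by symbol pattern, and all 114 listed members carry the same symbol and identifier in GENCODE mouse release M21 (GRCm38), which gave gene types and coordinates. Whether the authors' annotation held all 176 is not known. The members and lists were chosen with earlier results of these data known. One particular gene of the pathway lists enters their totals and is otherwise not reported here. The genes named by rule are those that differ, those with endogenous substrates and those in no list (the first 10 by identifier where a family has more), and Setd2; others were named after their listing was seen, to describe their families.

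Counts were made in Python 3.11.15 with pandas 2.3.3. Proteins were translated from GENCODE coding sequences and aligned within family numbers with Biopython 1.88 (BLOSUM62, end gaps free); identity is over the shorter protein. Windows are all distinct 100-base stretches of a gene's transcripts; one is shared where another annotated gene's transcript holds it. The run limit was set after the lists were seen. The RefSeq promoter nearest to the GENCODE start, at most 1000 bases away, was used. Counting and window steps were tested on simulated data. No p-value was computed. The alternatives were other symbols, units and patterns.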

Additional observations from a re-analysis of the deposited data

How the results depend on the processing

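The counts of members that differ kept within 1.5 times of the reported ones under annotation symbols, protein-coding members only, near-identical copies or the Ugt1a locus as 1 unit, and widened patterns. With near-identical copies as 1 unit, 13 were in E13.5 KO only and 7 in E13.5 WT only, and 13 in E15.5 KO only and 14 in E13.5 KO only. Alternatives chosen after the data were seen did the same: trailing-letter Cyp symbols, named pseudogenes added, members with 50% or more shared windows left out, and Gst left out, with 22.0% to 28.9% differing between the E13.5 genotypes and 25.2% to 32.2% between the KO ages. Within the identifiers that E15.5 WT reaches, which take in 1 member, the differing members were 0 in each direction of both comparisons (0%), since fewer genes enter. As a share of annotated rather than listed members (listed share in brackets), in the order E15.5 KO, E13.5 KO and E13.5 WT, Cyp stood at 46.8% (77.2%), 50% (82.5%) and 43.6% (71.9%). Ugt stood at 47.6% (83.3%), 42.9% (75%) and 33.3% (58.3%), Sult at 42.9% (75%), 47.6% (83.3%) and 47.6% (83.3%), and Ces at 47.4% (75%), 42.1% (66.7%) and 52.6% (83.3%). All are lower because unlisted genes are counted, and Gst did not move. Depth is unknown, so an unlisted gene may have been missed. No paired analysis was possible because no group holds more than 1 library.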

Other observations

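The symbol patterns leave out pseudogenes and a few enzymes of these families. Of 39 named pseudogenes of these families, 9 were in some complete list: 7 in E15.5 KO, 6 in E13.5 KO and 5 in E13.5 WT. Gstp-ps and Cyp4f41-ps were in all 3. Cyp2b27-ps and Cyp2c52-ps were in E15.5 KO and E13.5 KO and not in E13.5 WT, and Cyp2b26-ps and Cyp2d37-ps were in E15.5 KO and E13.5 WT and not in E13.5 KO. Gstm2-ps1 was in E15.5 KO alone. Cyp21a2-ps, the pseudogene of the adrenal steroid hydroxylase, was in E13.5 KO alone, while its parent Cyp21a1 was in E15.5 KO alone; 5.08% of the windows of Cyp21a1 occur in the pseudogene. Of 5 Cyp genes whose symbols end in a letter, among them Cyp3a41a and Cyp4a12a, 0 were in any complete list.

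Among genes with fewer than 10 CG in the promoter window, the members differed more often than protein-coding genes at large: 21 of 69 (30.4%) beside 19.5% between the KO ages, and 17 of 64 (26.6%) beside 14.9% between the E13.5 genotypes. This split was chosen after the data were seen and was not tested.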
